A study of Mus musculus with 11 samples.

Results

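Cohesin complexes encircle DNA, keep sister chromatids paired until mitosis and fold chromatin into loops. SMC1 and SMC3 form most of the ring, to which 1 SA protein is bound, SA1 (STAG1) or SA2 (STAG2). The SA proteins help to load the ring on chromatin and to hold it at sites bound by the zinc finger protein CTCF. Because SA1 and SA2 occupy the same place on the ring, cells without SA1 can build rings with SA2 only. The positions described here are peaks of SA1 in wild-type cells at which SA2 had no peak in wild-type cells and had one in SA1-null cells. They were chosen as intervals of the wild-type SA1 list that overlapped an SA1-null SA2 interval by 1 bp or more and no wild-type SA2 interval. This held for 2909 of 26602 wild-type SA1 intervals (10.9%), called null-only SA2 positions below.

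The chromatin immunoprecipitation and sequencing (ChIP-seq) data came from mouse embryonic fibroblasts (MEFs), which are mixed primary cells grown out of embryos. All groups were untreated cells of E12.5 embryos and of a C57BL/6 x 129 Sv background, and were either wild type or SA1-null. The antibodies were against SA1, SA2, SMC1 and SMC3, and both input DNA libraries were pools of the genotypes. How the SA1-null allele was made, how many embryos gave the cells and whether samples came from separate cultures is not stated in the labels. Interval lists hold no expression values, so markers of fibroblasts could not be read from them.

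Each group has 1 list, and that of SMC1 in SA1-null cells was made from 2 replicates. There was therefore no spread between replicates, and no test between genotypes or between sets of positions was made. The lists give chromosome, start and end, with no height or score, and depth is unknown. They held 26602 wild-type SA1, 7741 wild-type SA2 and 6352 SA1-null SA2 intervals. For SMC1 there were 24000 wild-type and 47003 SA1-null intervals, and for SMC3 15564 and 34802. The SA1 antibody gave 177 intervals in SA1-null cells, a low number that goes with the genotype label. That list was called against another input than the wild-type SA1 list, so the count alone does not check the label. Wilson intervals (95%) beside the shares below cover only the counting of positions within these lists.

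The choice rests on SA1 and SA2 lists, so what those lists show is a description. The 2909 positions were picked out by 2906 different SA1-null SA2 intervals, of which 2 also touched a wild-type SA2 interval lying beside the SA1 peak. The median overlap between the SA1 peak and the SA1-null SA2 peak was 478 bp, and at 2903 positions it covered at least 50% of the shorter interval. The centres of the SA1 and SA2 peaks lay a median of 52 bp apart (quartiles 24 and 88.5 bp). The nearest wild-type SA2 peak lay a median of 84067 bp away, against 80744.5 bp for SA1 positions without any SA2 peak. It was more than 10 kb away at 2633 positions (90.5%) and within 1000 bp at 35 (1.20%, against 1.53% of SA1 positions without SA2). A position without a wild-type SA2 interval may not be read as one without SA2, since that list was called at an unknown depth.

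A few positions sat close to the limits of the rule. Just inside it, the SA1 peak at chr16:32813515-32813799 (mm9, as all coordinates here) shared 52 bp with an SA1-null SA2 peak, and the one at chr13:63147508-63148010 shared 60 bp. The SA1 peaks at chr16:31354718-31354993 and chr11:94727411-94727797 lay 32 and 56 bp from a wild-type SA2 peak. Just outside it, the peaks at chr9:71391229-71391542 and chr13:110338384-110338816 were left out for 11 and 26 bp shared with a wild-type SA2 peak. Those at chr4:14362142-14362576 and chr4:118676839-118677353 missed an SA1-null SA2 peak by 23 and 37 bp.

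The ring subunits, which the rule did not use, were already called at most of these positions in wild-type cells. SMC1 had a wild-type peak at 2610 of the 2909 positions (89.7%, interval 88.6 to 90.8%), against 65.6% of all wild-type SA1 positions. SMC3, whose wild-type list was the shortest of the SMC lists, had one at 2264 (77.8%, interval 76.3 to 79.3%), against 50.1%. At 2631 positions (90.4%, interval 89.3 to 91.5%) at least 1 of these wild-type lists had a peak, against 67.2% of all SA1 positions. The share with at least 1 SA1-null SMC peak was 95.5% (2779 positions, interval 94.7 to 96.2%), against 82.9%.

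In SA1-null cells SMC1 had a peak at 2749 of the 2909 positions (94.5%, interval 93.6 to 95.3%), against 80.4% of all SA1 positions. SMC3 had one at 2700 (92.8%, interval 91.8 to 93.7%), against 75.7%. Both SA1-null shares exceeded the wild-type ones, and the SA1-null SMC lists were also longer, so these shares say how the lists differ and not how much cohesin was bound. Each SA1-null SMC list was also cut by width to its wild-type length, with the wild-type lists left whole. SA1-null SMC1 was then at 69.4% (48.7% of all SA1 positions) and SA1-null SMC3 at 59.5% (39.3%), below the wild-type shares. Such a cut can only lower the SA1-null shares, so it cannot decide in which genotype ring peaks were more frequent. Wild-type ring peaks were nearly all called again. Of the 2610 positions with wild-type SMC1, 2581 had SA1-null SMC1 (98.9%, interval 98.4 to 99.2%), against 98.0% over all SA1 positions. These 2581 were 88.7% of the set, and SMC1 of both genotypes was at 64.3% of all SA1 positions. Of the 2264 with wild-type SMC3, 2247 had SA1-null SMC3 (99.2%, interval 98.8 to 99.5%), against 98.9%. They were 77.2% of the set, against 49.5% of all SA1 positions. The shares called again lay close to those of all SA1 positions, whereas the shares of the set did not.

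The other SA1 positions give the scale for these shares. At the 2850 positions with SA2 in both genotypes, wild-type SMC1 was called at 94.3% (interval 93.4 to 95.1%) and wild-type SMC3 at 85.9% (interval 84.5 to 87.1%), above the null-only SA2 positions. At the 2503 positions with SA2 in wild-type cells only, the shares were 83.2% (interval 81.7 to 84.6%) and 67.9% (interval 66.1 to 69.7%), below them. The 18340 SA1 positions without any SA2 peak had the lowest shares, 54.9% for wild-type SMC1 and 37.7% for wild-type SMC3. The order was the same in the SA1-null lists, with SMC1 at 97.7%, 94.5%, 93.1% and 73.8% of the positions with SA2 in both, in SA1-null only, in wild type only and in neither. There the intervals of the second (93.6 to 95.3%) and the third (92.1 to 94.1%) overlapped. For SA1-null SMC3 the shares were 96.7%, 92.8%, 91.1% and 67.6%, and the intervals of the second (91.8 to 93.7%) and the third (90.0 to 92.2%) overlapped too.

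**Figure D1:**
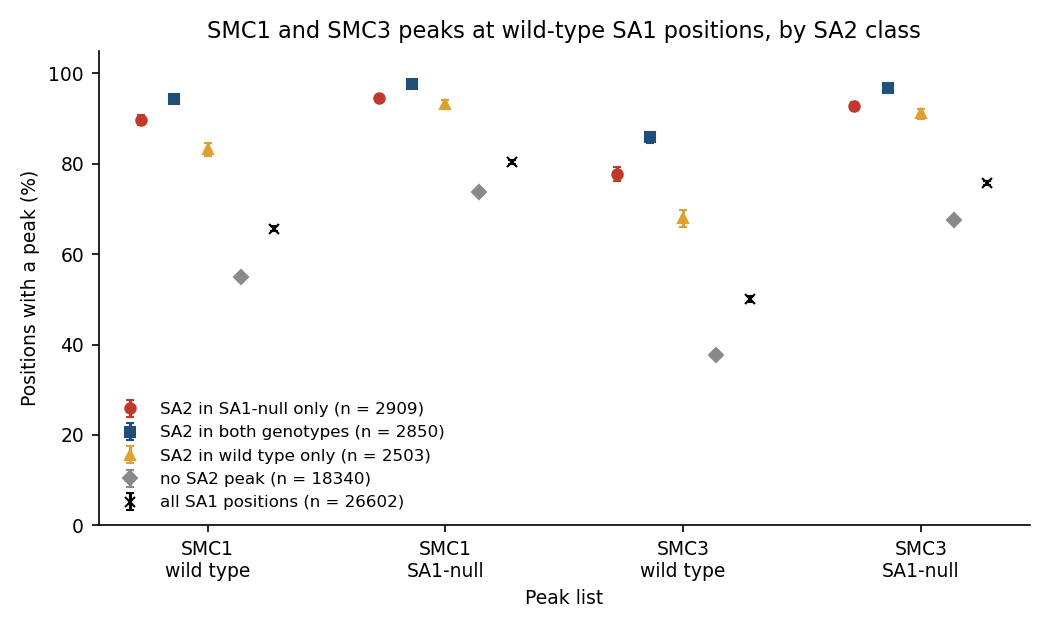
Share of wild-type SA1 positions (%) with an overlapping interval in each of the 4 SMC lists (x axis), for positions grouped by SA2 class; points are shares and bars 95% Wilson intervals, which cover counting only. Positions with SA2 in SA1-null cells only (red circles) lie between 77.8% and 94.5%, below those with SA2 in both genotypes (blue squares) and above those without SA2 (grey diamonds) in every list.

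Taken position by position, the most frequent combination was both SMC subunits in both genotypes. SMC1 and SMC3 were called in both wild-type and SA1-null cells at 2229 of the 2909 positions (76.6%, interval 75.1 to 78.1%), against 48.1% of all SA1 positions. With the SA1-null SMC lists shortened by width to as many peaks as the wild-type ones, these shares were 48.0% and 26.3%. In the full lists the share was 85.0% at positions with SA2 in both genotypes, 66.0% with SA2 in wild type only and 35.4% without SA2. A further 329 positions (11.3%, against 14.7% of all) lacked the wild-type SMC3 peak alone. In all, both SA1-null ring subunits were present at 2670 positions (91.8%, against 73.3%) and both wild-type ones at 2243 (77.1%, against 48.5%).

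Positions at which SMC1, SMC3 and SA2 were all called in SA1-null cells alone were few. SMC1 and SMC3 both had SA1-null peaks and no wild-type peaks at 98 of the 2909 positions (3.37%, interval 2.77 to 4.09%), against 9.18% of all SA1 positions. The share was 2.14% at positions with SA2 in both genotypes, 6.95% with SA2 in wild type only and 11.5% without SA2. A position can only enter this group when wild-type ring peaks are missing. The share of positions without a wild-type peak that had an SA1-null one is therefore given as well. Of the 299 null-only SA2 positions without wild-type SMC1, 168 had SA1-null SMC1 (56.2%, interval 50.5 to 61.7%), against 46.8% over all SA1 positions. Of the 645 without wild-type SMC3, 453 had SA1-null SMC3 (70.2%, interval 66.6 to 73.6%), against 52.5%. Both were above the background and below the same shares at the other SA1 positions with SA2. With SA2 in both genotypes these were 65.4% (interval 57.8 to 72.3%, which overlapped that of the null-only SA2 positions) and 78.7% (interval 74.4 to 82.4%, which did not). With SA2 in wild type only they were 64.4% (interval 59.7 to 68.8%) and 73.2% (interval 70.1 to 76.2%), whose intervals overlapped those of the null-only SA2 positions. With the SA1-null SMC lists shortened to the wild-type lengths, the 3.37% became 0.481%, against 1.82% of all SA1 positions.

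The remaining combinations account for the other positions. SMC1 was called in SA1-null cells as the sole ring peak at 52 positions (1.79%, against 5.43% of all SA1 positions), and SMC3 at 15 (0.516%, against 1.88%). No SMC list had a peak at 113 positions (3.88%, interval 3.24 to 4.65%, against 16.3%). The 10 combinations left over held 73 positions (2.51%), and their joint share of all SA1 positions is not given. The rarest of them held 1 (0.0344%, against 0.0526% of all SA1 positions) and the most frequent 16 (0.550%, against 1.32%). Positions that lacked wild-type SMC1 alone made up 0.481%, against 1.30%. Those with wild-type SMC1 as the sole ring peak made up 0.378%, against 0.695%. Positions that lacked SA1-null SMC3 alone (0.241%, against 0.233%) or SA1-null SMC1 alone (0.103%, against 0.0940%) were not rarer here. Both wild-type subunits and neither SA1-null one were called at 4 positions (0.138%, against 0.0677%). With these 4 included, SMC1 was called in wild-type and not in SA1-null cells at 29 positions (0.997%, against 1.28%), and SMC3 at 17 (0.584%, against 0.549%).

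The 2909 positions had broad SA1 peaks, with a median width of 622 bp (quartiles 536 and 700 bp), against 534 bp for all SA1 positions. Medians were 642 bp with SA2 in both genotypes, 571 bp with SA2 in wild type only and 498 bp without SA2. In 5 classes of SA1 peak width with nearly equal numbers of SA1 positions, null-only SA2 positions made up 2.90% of the narrowest class (161 to 414 bp) and 21.0% of the widest (659 to 3366 bp). SA1 width therefore moved with the SA2 class, and the ring subunits are given within classes of it.

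Within each of the 5 width classes and in each of the 4 SMC lists, null-only SA2 positions had ring peaks more often than SA1 positions of like width without SA2, with intervals that did not overlap. In the narrowest class, wild-type SMC1 was at 70.1% of 154 positions (interval 62.5 to 76.8%) and at 37.9% (interval 36.5 to 39.3%) of those without SA2. In the widest class it was at 94.4% of 1118 positions (interval 92.9 to 95.6%), against 74.0% (interval 72.1 to 75.7%). For wild-type SMC3 the shares were 56.5% against 23.3% in the narrowest and 84.8% against 55.0% in the widest class. Against positions with SA2 in wild type only, the order of the whole set did not hold in all classes. In the narrowest class those had SA1-null SMC1 at 86.6% (interval 82.2 to 90.1%) and SA1-null SMC3 at 83.8% (interval 79.1 to 87.6%). The null-only SA2 positions had them at 79.9% (interval 72.8 to 85.4%) and 76.0% (interval 68.6 to 82.0%). Wild-type SMC1 was at 71.8% of the former there, against 70.1%, and in the next class (415 to 496 bp) SA1-null SMC1 was at 89.4% against 87.7% and SA1-null SMC3 at 86.0% against 85.2%. In both SA1-null lists the intervals of these sets overlapped in all 5 classes. For wild-type SMC1 the shares came closer to those of positions with SA2 in both genotypes as SA1 width went up. In the widest class it was at 95.2% of the latter (interval 93.9 to 96.2%), which overlapped the interval of the null-only SA2 positions, while wild-type SMC3 was at 90.3% (interval 88.6 to 91.8%), which did not (82.6 to 86.8%).

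**Figure D2:**
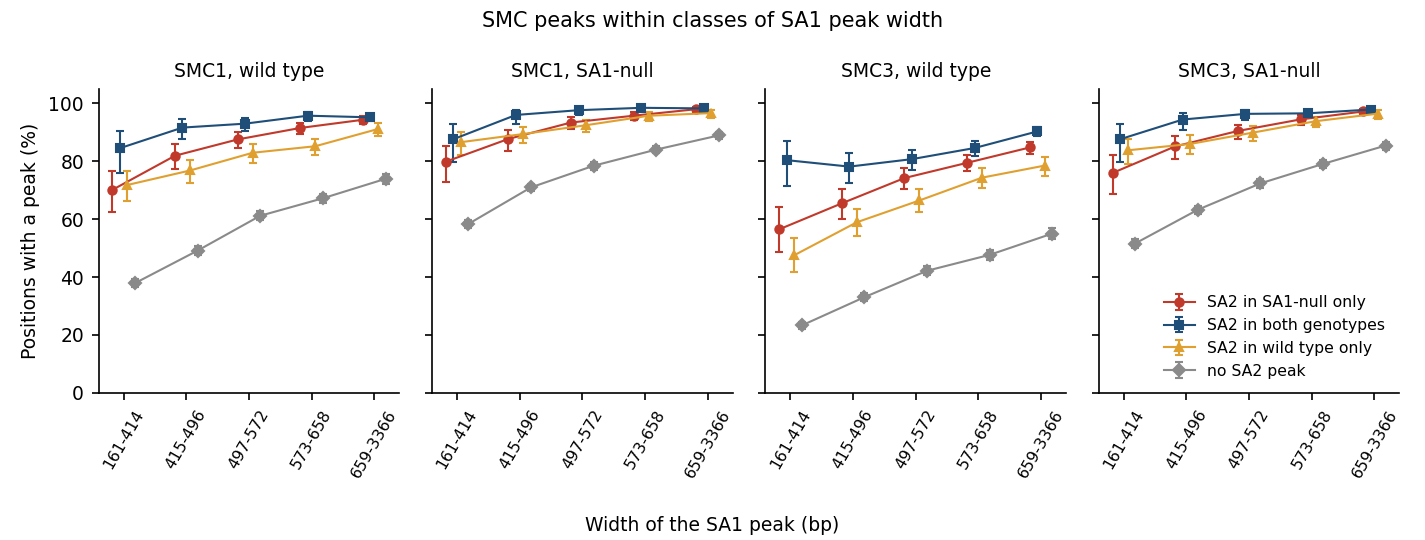
Share of positions (%) with an SMC peak (1 panel per list) in 5 classes of SA1 peak width (x axis, bp), for positions with SA2 in SA1-null cells only (red circles), in both genotypes (blue squares), in wild type only (orange triangles) and without SA2 (grey diamonds), with 95% Wilson intervals. Red points lie above grey ones in all panels and classes, from 70.1% against 37.9% to 94.4% against 74.0% for wild-type SMC1, while orange points lie above red ones in the narrowest class in 3 of the 4 panels.

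Widths of the ring peaks at these positions differed between the wild-type and SA1-null lists for SMC3 and hardly for SMC1. At the 2247 positions with SMC3 in both genotypes, the median SMC3 width was 600 bp in the wild-type list and 738 bp in the other. The SA1-null peak was wider by a median of 138 bp (quartiles 59 and 220 bp), and it was the wider one at 1973 positions (87.8%, interval 86.4 to 89.1%). At the 2581 positions with SMC1 in both genotypes, the medians were 636 and 626 bp, and the median of the paired difference, SA1-null minus wild type, was -2 bp (quartiles -89 and 86 bp). All SA1 positions gave nearly the same values, with a median difference of 139 bp and 87.3% wider for SMC3, and 1 bp and 50.1% for SMC1. The shift in SMC3 width was thus shared by SA1 positions of every SA2 class, whose median differences lay between 136 and 140.5 bp. Over the whole lists, median widths were 563 bp (wild type) and 652 bp (SA1-null) for SMC3, and 579 and 535 bp for SMC1. Each genotype has 1 list per antibody, and the part of library or depth in these widths was not tested.

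**Figure D3:**
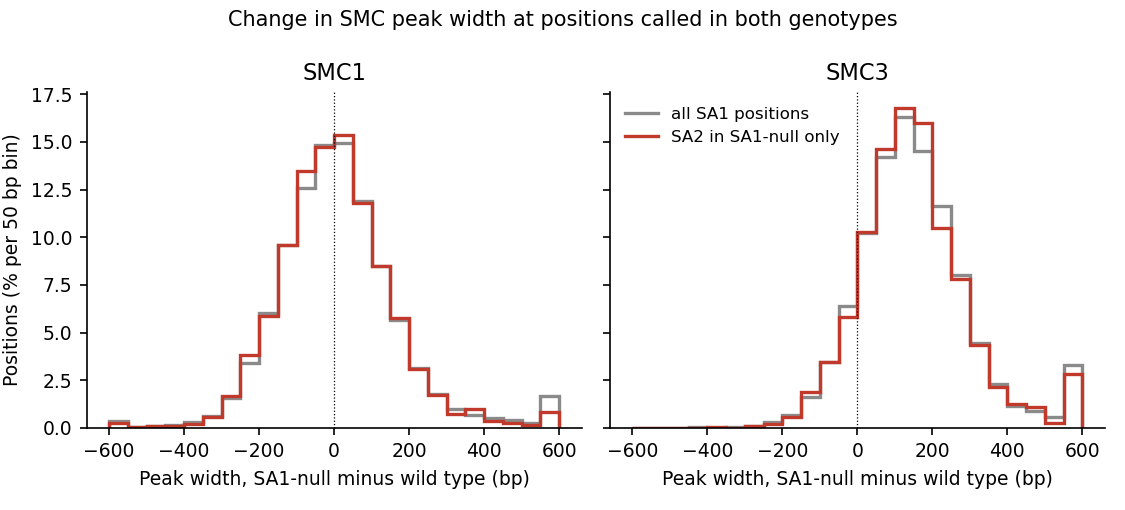
Difference in peak width, SA1-null minus wild type (bp, x axis), for SMC1 (left) and SMC3 (right) at positions called in both genotypes, as the percentage of positions per 50 bp bin; differences beyond 600 bp are counted in the outermost bins. The lines for the null-only SA2 positions (red) and for all SA1 positions (grey) nearly coincide, with medians of -2 and 1 bp for SMC1 and of 138 and 139 bp for SMC3.

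The SA2 peak and the ring peaks at these positions were centred close to the SA1 peak. Median distances between centres were 43.5 bp for wild-type SMC1, 46 bp for SA1-null SMC1, 43 bp for wild-type SMC3 and 43.5 bp for SA1-null SMC3. Over all SA1 positions the same medians were 46.5, 49.5, 44.5 and 48 bp. The SA2 peaks of SA1-null cells had a median width of 528 bp here, against 544 bp at positions with SA2 in both genotypes and 452 bp at the 599 SA1-null SA2 peaks without SA1.

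Among the null-only SA2 positions, SA1 peaks were narrower where fewer ring peaks were called. The median SA1 width was 636 bp at the 2229 positions with all 4 SMC peaks and 595 bp at the 329 that lacked wild-type SMC3 alone. It was 586 bp at the 98 with SMC1 and SMC3 in SA1-null cells alone, 540 bp at the 67 with a single SA1-null ring peak and 530 bp at the 113 without any. SA1-null SA2 widths did not follow the same order, with medians of 536, 502, 520.5, 466 and 512 bp. The gap to the next SA1 peak had medians of 15946, 19793, 27093, 23189 and 34012 bp, so that positions without a ring peak lay farthest from other SA1 peaks.

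The 113 positions without a ring peak included most of those found in an input list. Of the 2909 positions, 17 (0.584%, against 0.184% of all SA1 positions) overlapped an interval of the input against which the SMC libraries had been called. Of these 17, 15 were among the 113 (13.3%), against 33 of the 4334 SA1 positions without a ring peak (0.761%). Positions with SA2 in both genotypes and no ring peak gave 6 of 45 (13.3%). Those with SA2 in wild type only and no ring peak gave 4 of 127 (3.15%), and those without SA2 and ring peak 8 of 4049 (0.198%). The input used for the SA lists overlapped 4 of the 2909 positions (0.138%, against 0.0376%) and the SA1-null SA1 list 2 (0.0688%, against 0.0451%), all of them among the 113. The part of input signal in the missing ring peaks was not tested. With background intervals taken out of every list, the set held 2890 positions.

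Positions of 4 combinations are named, by a rule based on the widths of their peaks: all 4 SMC peaks, both SA1-null ones alone, both wild-type ones alone, and none. Among those with all 4 SMC peaks, the highest mean width percentile was that of chr7:148233978-148235245, an SA1 peak of 1268 bp. Its wild-type and SA1-null SMC1 peaks were 1468 and 1572 bp wide, and its SMC3 peaks 1253 and 1572 bp. It was followed by chr18:5133920-5134511, chr16:85807146-85808665, chr6:135199682-135200799 and chr5:151944631-151945477. All 5 had wild-type SMC1 peaks of at least 1012 bp, and the nearest wild-type SA2 peak was between 4343 and 225722 bp away. At the last of them the wild-type SMC1 peak was 1012 bp wide and the SA1-null one 2188 bp.

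Among positions with SMC1 and SMC3 in SA1-null cells alone, the first was chr6:28085489-28086358, with an SA2 peak of 339 bp, an SMC1 peak of 808 bp and an SMC3 peak of 866 bp in SA1-null cells. Next came chr1:64272573-64273133, with SA2, SMC1 and SMC3 peaks of 636, 744 and 910 bp. The others were chr18:32831508-32832195, chr3:20554031-20554826 and chr2:77886326-77886984. The last one had a wild-type SA2 peak only 129 bp away, whereas the other four lay 55074 to 320009 bp from one. The 4 positions with wild-type ring peaks alone were chr10:97305184-97305901, chr9:53832570-53833056, chr2:172154537-172154998 and chr13:96800566-96801155. Their wild-type SMC1 peaks were 334 to 638 bp wide and their SMC3 peaks 307 to 498 bp.

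The widest SA1 peaks without any ring peak were chr15:71720926-71721688, chr11:66685012-66685759 and chr12:60898880-60899626, with SA1 widths of 763, 748 and 747 bp. Their SA1-null SA2 peaks were 462, 610 and 332 bp wide. None of the 3 overlapped an input interval or an SA1-null SA1 peak.

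Along the genome the positions were spread over all chromosomes and were sparse on chromosome X. They made up a median of 11.1% of the SA1 positions of an autosome, with a range from 8.82% on chromosome 17 to 13.2% on chromosome 18 over 19 autosomes, which share libraries and are not replicates. On chromosome X they made up 29 of 765 (3.79%, interval 2.65 to 5.39%). Positions with SA2 in both genotypes were also sparse there, at 2.88% against 9.27% to 12.8% on autosomes. Those with SA2 in wild type only were not, at 10.7% against 6.83% to 13.0%. Chromosome X held 1.45% of the SA1-null SA2 intervals and 2.60% of the wild-type ones, and both lists were used by the rule, so these shares are a description.

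Ring peaks were more frequent at these positions than at SA1 positions in general on every autosome. On all 19, each of the 4 SMC lists covered a higher share of the null-only SA2 positions than of all SA1 positions of that chromosome. Wild-type SMC1 ranged from 86.3% to 96.8% of the positions per autosome, against 60.8% to 74.1% of all SA1 positions. Wild-type SMC3 ranged from 73.3% to 83.0%, against 47.4% to 58.7%. The 29 positions on chromosome X had wild-type SMC1 in 21 cases (72.4%, interval 54.3 to 85.3%) and wild-type SMC3 in 15 (51.7%, interval 34.4 to 68.6%), against 52.2% and 31.0% of all SA1 positions there. In SA1-null cells they had SMC1 in 28 cases (96.6%, interval 82.8 to 99.4%) and SMC3 in 24 (82.8%, interval 65.5 to 92.4%), against 70.8% and 66.3%.

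**Figure D4:**
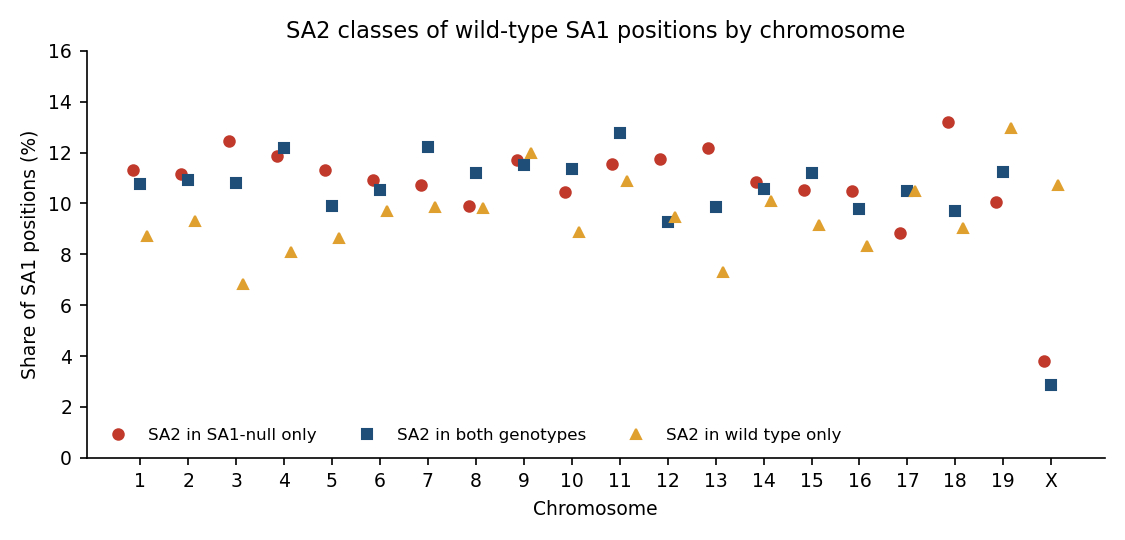
Share of the wild-type SA1 positions of each chromosome (%, y axis) that had SA2 in SA1-null cells only (red circles), in both genotypes (blue squares) or in wild-type cells only (orange triangles); points are counts of 1 list each, with no replicate error. On chromosome X the first class is at 3.79% and the second at 2.88%, below the autosome minimum of 8.82% for the first and 9.27% for the second, while the third is at 10.7%.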

How the data were processed

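The authors deposited 10 interval lists of 3 columns (chromosome, start, end), the last 2 in a unit of bp and with no other value. Per the submitters' processing notes, CASAVA 1.7 and the mm9 build were used. Aligner and peak caller: not given in the sources used here. From the names under which they were deposited, peaks were called at FDR 10 (taken as percent) without a fold threshold. The names also show the input compared with: one input for the wild-type SA1 and both SA2 lists, the other for the SMC lists and SA1-null SA1. Lists stand for single libraries except SA1-null SMC1 (2 replicates together).

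Printed starts are 1-based, the deposited ones being taken as 0-based. Where several intervals overlapped a position, the one with the longest overlap gave its width. Width percentiles were taken within each list. Named positions were the 5 (3 for those without a ring peak) with the highest mean percentile of the ring peaks that define their combination, or, without a ring peak, the widest SA1 peak; those nearest the rule's limits; and the 3 windows of 1 Mb with the most members. The members and lists were chosen with earlier results of these data known. Alternatives are given in the closing section. Overlap functions were tested on simulated data (100% of planted members among 26602 intervals recovered) and matched bedtools 2.31.1 in the counts of 90 ordered list pairs. Python 3.11.15, numpy 2.4.6 and scipy 1.17.1 were used. Genes and sequences of mm9 were not analysed here.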

Additional observations from a re-analysis of the deposited data

How the results depend on the processing

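The number of positions was between 2198 (the widest 50% of SA1 peaks) and 3300 (the wild-type SA2 list without its narrowest peaks, as long as the SA1-null list), against 2909. Shares in the SMC lists stayed within the Wilson interval of the reported value when 50% of the shorter interval had to overlap, with no wild-type SA2 within 1000 bp, with intervals closer than 1000 bp merged, without chromosome X and without background intervals. With the widest 50% of SA1 peaks, the wild-type and SA1-null shares were 92.5% and 96.5% for SMC1 and 81.4% and 95.2% for SMC3, and that with all 4 peaks 80.7%. With the SA1-null SMC lists shortened by width to the wild-type length, which removes peaks by construction, SA1-null SMC1 was at 69.4% (48.7% of all SA1 positions), SA1-null SMC3 at 59.5% (39.3%), all 4 peaks at 48.0% (26.3%) and SMC1 and SMC3 in SA1-null cells alone at 0.481% (1.82%). Shares in the 4 lists and in all of them together stayed above those of SA1 positions without SA2 in all 35 comparisons, and the share with SMC1 and SMC3 in SA1-null cells alone stayed below in all 7. These comparisons reuse largely the same positions. Shortening the SA1-null lists left the wild-type shares unchanged, so there they repeat the main result. On chromosome X, in settings added after the data were seen, the share of SA1 positions was 3.79% to 7.14%, the latter with the widest 50% of SA1 peaks (autosomes 16.7%). Depth is unknown, so a missing peak was not told apart from a weak one. No paired analysis was possible, because each group has 1 list and the labels do not state which samples came from the same culture. The results come from no test.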

Other observations

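The median gap from a null-only SA2 position to the nearest other one was 231777 bp, and 149 of the 2909 (5.12%) lay within 10 kb of another. Within the 2850 positions with SA2 in both genotypes the median gap was 205364 bp and 4.95% lay within 10 kb, and within the 2503 with SA2 in wild type only 203814 bp and 4.19%. The nearest other SA1 peak was itself such a position in 393 cases (13.5%), while these positions made up 10.9% of all SA1 peaks. It had SA2 in both genotypes in 10.6% of cases (10.7% of all), SA2 in wild type only in 7.67% (9.41% of all) and no SA2 in 68.2% (68.9% of all).

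Of the 2413 windows of 1 Mb with an SA1 peak, 1534 held at least 1 null-only SA2 position and 38 held at least 5. The window with the most was chr15:85000001-86000000, where 8 of 24 SA1 peaks were of this kind, 2 had SA2 in both genotypes, 3 in wild type only and 11 in neither. All 8 had SMC1 and SMC3 peaks in both genotypes. The windows chr1:91000001-92000000 and chr7:73000001-74000000 held 7 of 20 SA1 peaks each, of which 7 and 6 had all 4 SMC peaks. These windows were picked for their number of null-only SA2 positions, and SMC peaks at their other SA1 peaks were not counted.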
